A study of Mus musculus with 4 samples.

Results

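Flt3-positive (LSK/Flt3+) and Flt3-negative (LSK/Flt3-) cells of wild-type marrow were compared across the genome on 1 Affymetrix array each, the 2 wild-type arrays among the 4 arrays of a study of Hdac3. Each fraction's array was identified by its label, and the comparison covered 19938 genes, each read from a probe set that names a single gene symbol. Both wild-type arrays carried biotin-labelled total RNA of bone marrow cells from C57BL/6 mice, sorted by flow cytometry and pooled from 5 to 30 mice. The other 2 arrays held Hdac3 null LSK/Flt3- cells of the genotype Vav-Cre/Hdac3Flox/-, on the same background, in which the Vav promoter drives Cre in blood cells. They are given beside the wild-type values as the only replicate pair, with the limits that their genotype differs from that of the wild-type arrays and that nothing says whether they came from separate mice. No age, sex or treatment of the mice is given in the sources used here.

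LSK cells are the marrow cells that lack surface markers of the mature lineages and carry Sca-1 and Kit. They hold the blood stem cells and the earliest multipotent progenitors. Flt3 is a receptor tyrosine kinase of the cell surface. Long-term stem cells lie in the Flt3- fraction, and LSK cells that gain Flt3 lose self-renewal and much of their megakaryocyte and erythroid potential while keeping lymphoid and granulocyte-monocyte potential. Comparing the fractions asks which genes differ along that first step in unperturbed marrow.

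The deposited values are log2 levels from RMA, a method that summarises the probes of a probe set. A log2 difference of 1 is a 2-fold ratio, and all differences below are LSK/Flt3+ minus LSK/Flt3-. With 1 array per fraction no difference has a replicate check and no test could be run, and the number of arrays limits the precision. RMA gives no detection call and no zero, so a low level is a reading near background and not an absence. Array medians over the 19938 genes were 5.50 for LSK/Flt3-, 5.58 for LSK/Flt3+ and 5.70 and 5.52 for null replicates 1 and 2. Xist, the long noncoding RNA of X inactivation, read 4.23 and 3.90 on the wild-type arrays and 10.84 and 9.67 on the null arrays. The null arrays thus also differ from the wild-type ones in this sex-linked gene. Y-linked genes were read on all 4 arrays. Kdm5d read 8.66 and 8.32 on the wild-type arrays and 8.02 and 7.31 on the null arrays. Eif2s3y read 8.05, 7.85, 7.33 and 6.08, and Uty 6.94, 6.70, 6.42 and 5.68, in the same order. The null replicates were 1.17 apart for Xist and 0.70 to 1.25 apart for these 3 genes.

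Flt3 lay on the side that the labels give. Dntt, Slamf1 and Tek, markers chosen with earlier results of these data known, lay on the side they were chosen for. Flt3 read 9.18 on the LSK/Flt3- array, 10.07 on the LSK/Flt3+ array, and 7.84 and 7.02 on null replicates 1 and 2. The difference between the wild-type arrays was 0.89, a 1.85-fold ratio, and the null replicates were 0.83 apart. The Flt3- fraction, sorted on surface protein, therefore still read well above its array's median for this RNA. Dntt, the DNA polymerase that adds untemplated bases to antigen receptor joins, read 8.33 and 10.14 on the wild-type arrays and 5.83 and 4.56 on the null arrays. Its difference of 1.81 was 3.51-fold, and the null replicates were 1.28 apart. Both of these genes were highest on the LSK/Flt3+ array and lower on both null arrays than on either wild-type array.

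Slamf1, the CD150 surface receptor of long-term stem cells, read 6.16 on LSK/Flt3- and 5.08 on LSK/Flt3+, a difference of -1.08. It read 8.52 and 8.17 on the null arrays, above both wild-type arrays. Tek, the receptor for the angiopoietins, read 6.78 on LSK/Flt3- and 5.51 on LSK/Flt3+, a difference of -1.27. It read 6.25 and 6.22 on the null arrays, between the wild-type values and 0.02 apart. The LSK/Flt3+ array was the lowest of the 4 for both stem cell markers.

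Over all genes the differences between the wild-type fractions were mostly small. Among the named genes the large ones leaned towards LSK/Flt3+, whereas the 13767 probe sets with several or no gene symbols, left out here, leaned the other way, with 349 at least 2-fold higher and 579 lower. Over the 19938 genes the SD of the differences was 0.31 and the median 0.04, with 11290 genes above 0 and 8601 below. At least 2-fold apart were 184 genes higher in LSK/Flt3+, 0.923% of those compared, and 35 genes lower, 0.176%. At 1.5-fold, a log2 difference of 0.585, they were 698 genes higher (3.5%) and 335 lower (1.68%). At 4-fold they were 34 higher and 1 lower. Between the null replicates 272 genes (1.36%) were at least 2-fold higher on replicate 1 and 291 (1.46%) on replicate 2, so more genes passed that fold between replicates than between the fractions. The split between higher and lower depended on scaling at the lower fold: 67.6% of the 1.5-fold genes were higher in LSK/Flt3+ as deposited and 56.1% when each array was centred on its median.

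**Figure D1:**
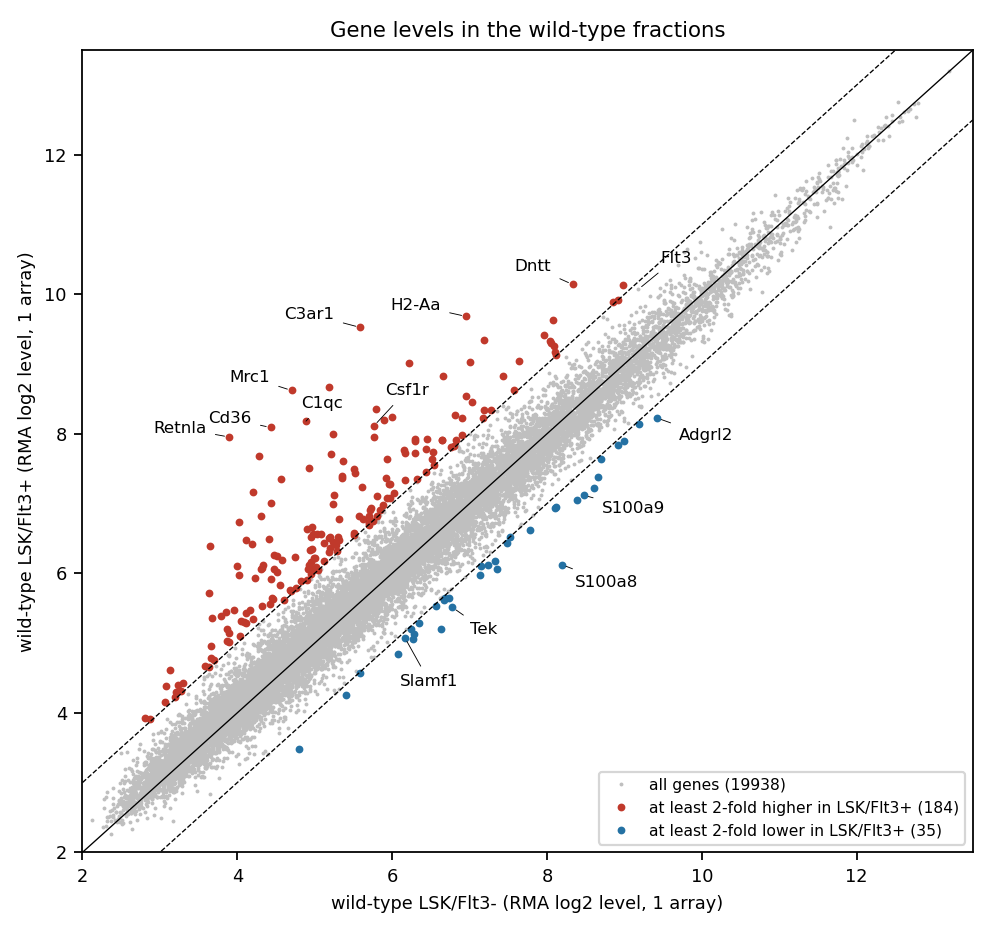
Log2 level of each of 19938 genes on the wild-type LSK/Flt3- array (horizontal axis) and the wild-type LSK/Flt3+ array (vertical axis). Red points are the 184 genes at least 2-fold higher in LSK/Flt3+, blue points the 35 at least 2-fold lower, and dashed lines mark 2-fold. The red points reach much farther from the line of equality, up to a difference of 4.06 for Retnla, than the blue ones, down to -2.07 for S100a8.

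On LSK/Flt3- the median of the genes higher in LSK/Flt3+ lay slightly below that of all genes. The median level of the 184 genes was 5.19 on LSK/Flt3- and 6.73 on LSK/Flt3+. Of these genes 138 read under 6 on the LSK/Flt3- array against 46 on the LSK/Flt3+ array. Over all 19938 genes the medians were 5.50 and 5.58, and 11709 and 11488 genes read under 6 on these arrays. The medians of the 184 genes on the null arrays were 5.13 and 4.97, close to that on the wild-type LSK/Flt3- array. The 35 lower genes started from higher levels, with a median of 7.24 on LSK/Flt3-, 6.10 on LSK/Flt3+, and 6.59 and 6.80 on the null arrays. A gene's gap between the fractions exceeded its gap between the null replicates for 178 of the 184 genes and 28 of the 35, against 36.1% of all genes. The sets were chosen for a large gap, so these counts are a description. Such a choice also favours low LSK/Flt3- readings in the higher set and high ones in the lower set.

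**Figure D2:**
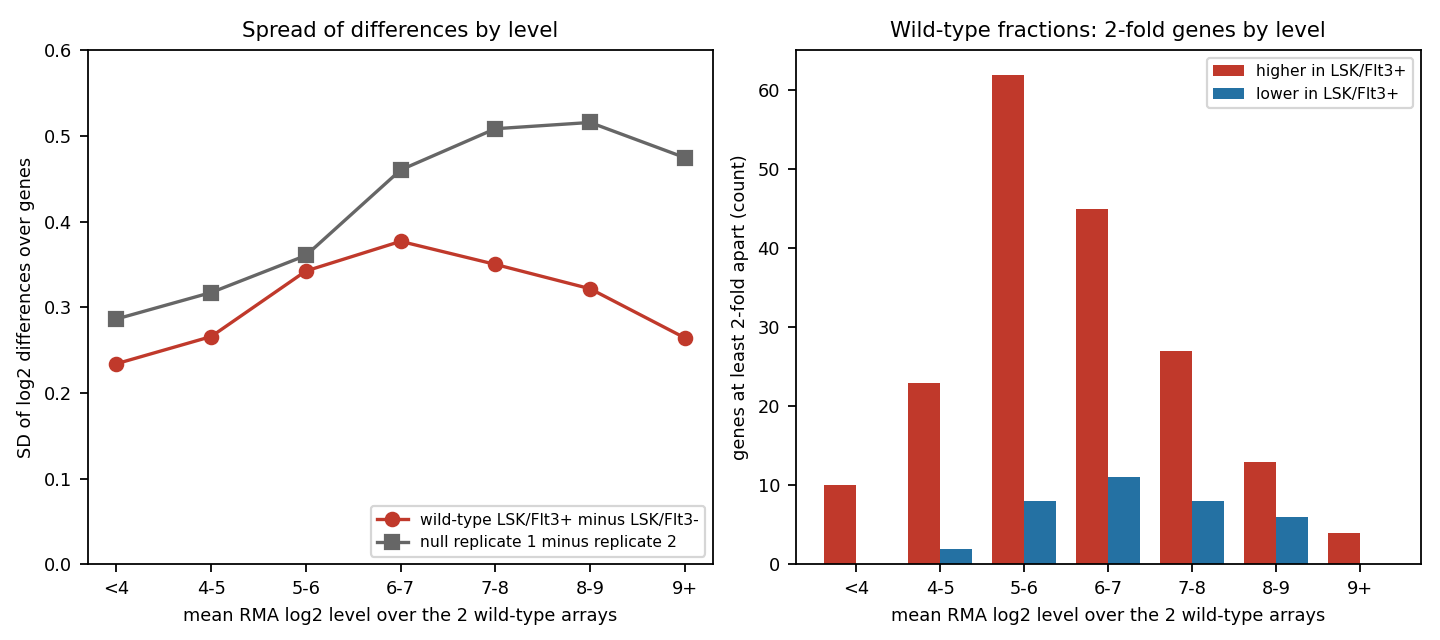
The left panel plots the SD of the log2 differences over genes, in bins of the mean level on the wild-type arrays, for LSK/Flt3+ minus LSK/Flt3- (red circles) and for null replicate 1 minus replicate 2 (grey squares). The right panel counts the genes at least 2-fold higher (red bars) or lower (blue bars) in LSK/Flt3+ in the same bins. The SD between the fractions lies below that between the null replicates in every bin, and 62 of the 184 higher genes have a mean level from 5 to 6.

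Genes of lymphoid priming were mostly higher in LSK/Flt3+. Of 24 measured members 19 were higher and 5 lower, 10 passed 1.5-fold upwards and 0 downwards, against 3.5% and 1.68% of all genes. The list's median difference was 0.45, against 0.04 for all genes. It includes Flt3 and Dntt, the markers of the fraction. In bulk RNA a larger share of cells expressing a gene and more of its RNA per cell cannot be told apart.

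Among the receptors, Il7r, the interleukin-7 receptor chain that B and T cell precursors need, read 4.96 on LSK/Flt3-, 6.34 on LSK/Flt3+, and 4.39 and 4.03 on the null arrays, a difference of 1.38. Notch1, the receptor that commits progenitors to the T lineage, read 6.66 and 7.32 on the wild-type arrays and 6.93 on both null arrays, a difference of 0.65. Il7r was highest on LSK/Flt3+ with no other array above 5, whereas the 4 Notch1 readings lay within 1 log2 unit.

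The recombinase genes were higher from low levels. Rag1 read 5.05 on LSK/Flt3-, 6.01 on LSK/Flt3+, and 4.41 and 4.33 on the null arrays, a difference of 0.96. Rag2, its partner in cutting antigen receptor genes, read 3.87 and 5.03 on the wild-type arrays and 4.02 and 3.73 on the null arrays, a difference of 1.16. For both, the LSK/Flt3+ reading was the highest of the 4. The other readings of Rag2 ran from 3.73 to 4.02. Those of Rag1 ran from 4.33 to 5.05, with LSK/Flt3- above both null arrays.

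Transcription factors and adaptors of the list differed by -0.19 to 0.98. Ets1, an ETS family factor of lymphocytes, read 5.56 and 6.50 on LSK/Flt3- and LSK/Flt3+, a difference of 0.95, and 5.20 and 5.56 on the null arrays. Blnk, the adaptor that links the B cell receptor to its signalling enzymes, read 4.29 and 5.27, a difference of 0.98, and 3.92 and 3.69 on the null arrays. Satb1, a chromatin organiser of T cell development, was high in both fractions at 9.46 and 10.09, a difference of 0.63, and lower on the null arrays at 7.38 and 6.96. Mef2c, a factor of lymphoid and myeloid fate, read 8.94 and 9.46, and its difference of 0.53 fell short of 1.5-fold. Ets1, Blnk and Satb1 were each highest on the LSK/Flt3+ array. Other factors of the list were flat or lower, with Foxo1 at 0.09, Bcl11a at -0.03, Ikzf1 at -0.05 and Tcf3 at -0.19. The chemokine receptors Ccr7 and Ccr9, at -0.03 and -0.12, complete the 5 lower members.

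**Figure D3:**
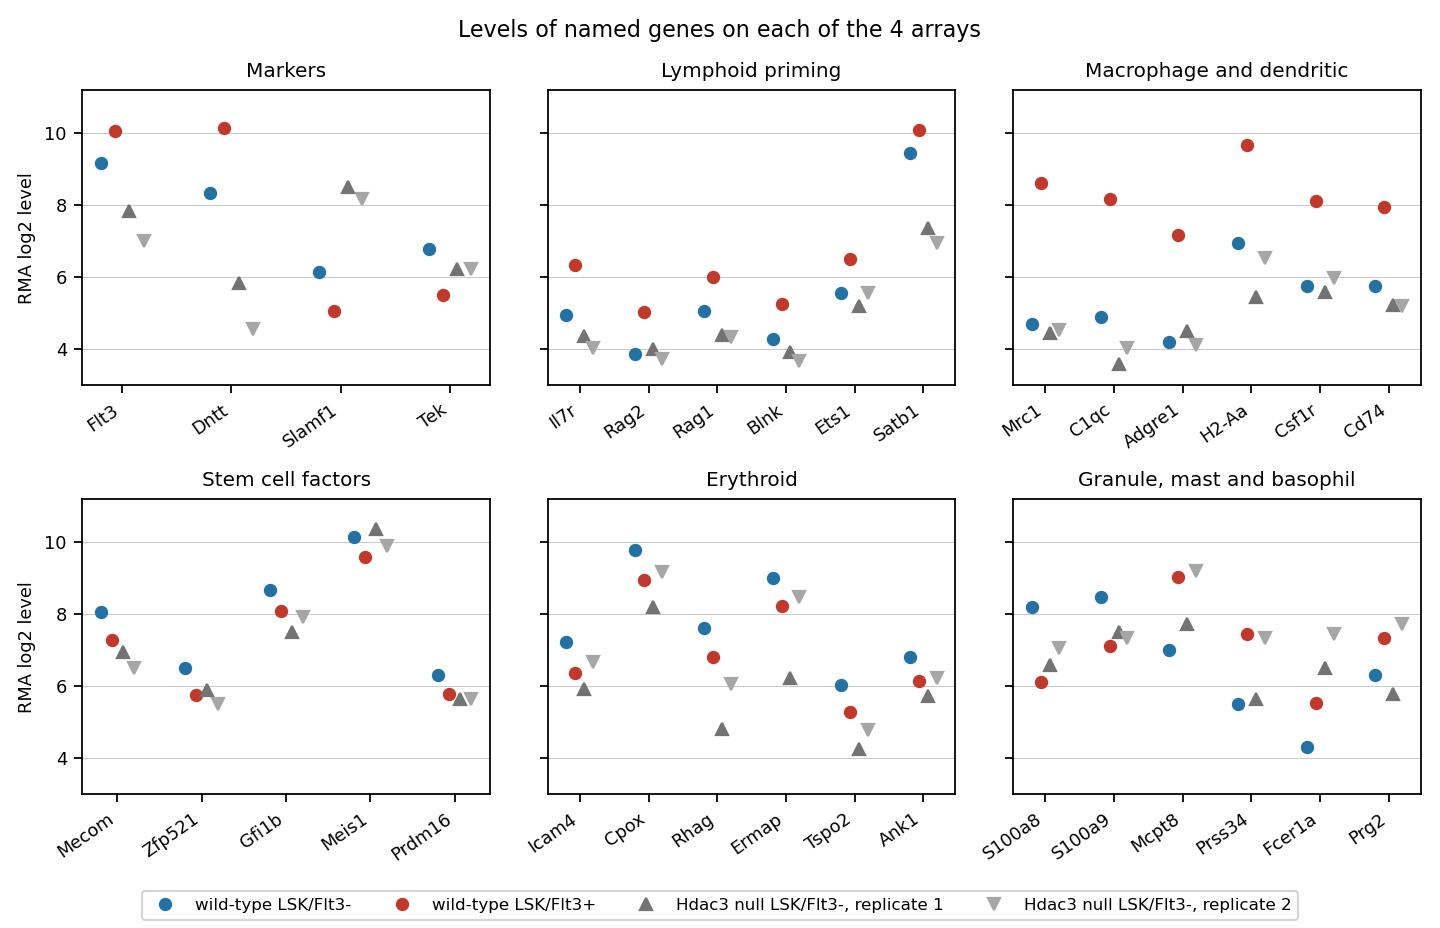
Log2 level of named genes on each of the 4 arrays, 1 point per array: wild-type LSK/Flt3- (blue circles), wild-type LSK/Flt3+ (red circles) and the Hdac3 null LSK/Flt3- replicates (grey triangles). In the macrophage and dendritic panel the LSK/Flt3+ point stands above the other 3 arrays for each gene, with Mrc1 at 8.62 against 4.70 or less, whereas in the erythroid panel it lies below the LSK/Flt3- point for each gene.

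Sequence before the start of Dntt is shown because this gene separates the fractions most among the lymphoid genes. RefSeq windows on GRCm38.p6 hold the 250 bases before each start, printed 5′ to 3′ on the gene's strand. 4 short motifs were searched on both strands: GATAAG (read by GATA factors), CAGGTG (an E-box), TGTGGT (the Runx core) and GGAAGT (an ETS core). Matches are printed in capitals, none overlap another motif in the windows shown, and a match is a description of the letters. The Dntt window, chr19:41029025-41029274 on the plus strand, holds none of them.
Dntt: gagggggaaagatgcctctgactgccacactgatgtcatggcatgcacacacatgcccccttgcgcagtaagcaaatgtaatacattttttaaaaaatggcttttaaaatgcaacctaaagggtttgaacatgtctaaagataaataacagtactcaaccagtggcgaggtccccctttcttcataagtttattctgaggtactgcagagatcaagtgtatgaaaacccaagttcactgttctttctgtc
Over the lymphoid list, GGAAGT was found in 10 of 31 windows, 32.3%, against 19.7% of all 32851 windows. CAGGTG was found in 12.9% of the list's windows and in 17.2% of all.

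Genes of macrophages and dendritic cells were among the largest differences of the comparison, all higher in LSK/Flt3+. Of 24 measured members of that list 24 were higher, 16 by 1.5-fold and 13 by 2-fold, against 0.923% of all genes. The median difference was 1.30 and the mean 1.41. For 21 members the gap exceeded that between the null replicates. The list shares Flt3, Csf1r, Vcam1, Cx3cr1 and Bst2 with other lists used here. Flt3, on which the fractions were sorted, is among the 16 members past 1.5-fold, and its direction follows from the sort.

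The scavenger and phagocyte receptors led. Mrc1, the mannose receptor of macrophages, read 4.70 on LSK/Flt3-, 8.62 on LSK/Flt3+, and 4.46 and 4.53 on the null arrays, a 15.1-fold ratio. C3ar1, the receptor for the complement fragment C3a, read 5.59 and 9.53 on the wild-type arrays and 5.90 and 5.69 on the null arrays, a 15.3-fold ratio. Cd36, a receptor for oxidised lipids, read 4.43 and 8.09 and, on the null arrays, 3.80 and 3.72, a 12.6-fold ratio. For these 3 genes the LSK/Flt3- reading lay within 1 log2 unit of both null readings and the LSK/Flt3+ reading stood apart from all of them.

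Adgre1, the gene of the macrophage antigen F4/80, read 4.21 on LSK/Flt3- and 7.17 on LSK/Flt3+, a difference of 2.96, and 4.52 and 4.13 on the null arrays. Csf1r, the receptor that macrophages need to survive, read 5.77 and 8.11, a difference of 2.35, and 5.59 and 5.97 on the null arrays. Cd163, a scavenger of haemoglobin on tissue macrophages, read 4.91 and 6.64, a difference of 1.74. Each of these was highest on the LSK/Flt3+ array. Vcam1 and Hmox1, an adhesion molecule and a haem-degrading enzyme of marrow macrophages, differed by 1.59 and 1.48. Marco and Spic, a scavenger receptor and a transcription factor of particular tissue macrophages, differed by 0.19 and 0.23 and read under 5 on every array.

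The complement subunits C1qa, C1qb and C1qc, whose products form 1 protein, differed by unlike amounts. C1qc read 4.89 on LSK/Flt3-, 8.18 on LSK/Flt3+, and 3.59 and 4.05 on the null arrays, a difference of 3.29. C1qb differed by 1.15, from 5.63 to 6.78, and C1qa by 0.55, from 5.44 to 5.98. The order of the sizes was C1qc, C1qb and C1qa, all in the same direction.

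Genes of antigen presentation on class II molecules were higher by unlike amounts. H2-Aa, a class II chain, read 6.95 on LSK/Flt3- and 9.68 on LSK/Flt3+, a difference of 2.73, and 5.47 and 6.53 on the null arrays. H2-Ab1, its partner chain, read 7.18 and 9.34, a difference of 2.15, and Cd74, the invariant chain, read 5.77 and 7.95, a difference of 2.18. H2-Eb1 differed by 1.46, H2-DMa by 0.73, H2-Ob by 0.50, H2-Eb2 by 0.20 and H2-Oa by 0.02. Ciita, the transactivator of these genes, differed by only 0.31, from 4.77 to 5.08, and read 5.14 and 5.06 on the null arrays. The class II chains are similar in sequence, so their probes could in part read one another.

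The remaining genes among the 15 largest differences with a mean level of at least 6 were not members of that list. Lilr4b and Lilrb4a, leukocyte immunoglobulin-like receptors, differed by 2.78 and 2.56. They are near-identical neighbours whose probes could read both genes, and the null replicates were 1.70 apart for Lilr4b. Ifi207, an interferon-inducible gene, differed by 3.48, from 5.19 to 8.67. Cxcl16 and Cxcl2, chemokines, differed by 2.59 and 2.25. Ly86, a partner of the Toll-like receptor CD180, differed by 2.50, Mpeg1, a pore-forming protein of macrophages, by 2.30, and C5ar1, the receptor for C5a, by 2.25. Dab2, an endocytic adaptor, differed by 2.76 on its brighter probe set and by -0.003 on the other, which read 3.11 on both arrays, so its value rests on 1 probe set. Retnla, a secreted protein of alternatively activated macrophages, had the largest difference of all, 4.06, from 3.89 to 7.95, but its mean level was under 6 and it was chosen after its values were seen.

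Markers of other cells moved with these genes to different degrees. The summed level of the macrophage and dendritic list, as the log2 of the sum over its 24 genes on a linear scale, was 10.88 on LSK/Flt3- and 12.41 on LSK/Flt3+, against 10.45 and 10.44 on the null arrays. On LSK/Flt3- 3 members read below the lower quartile of their array and on LSK/Flt3+ 1 did. The log2 sum of the neutrophil and monocyte list was 10.44 and 10.65, and that of the mast and basophil list 10.02 and 10.60. That of the B-lineage list was 11.71 and 11.69, and that of the T and NK list 10.55 and 10.72. Such a sum follows its brightest members, among them Flt3 in the macrophage list, at 9.18 and 10.07. In the B-lineage list Cd24a read 11.21 and 11.08, while 11 of 15 members were higher and 4 lower, with a median of 0.22. Of the genes that mark cells a lineage gate removes, Itgam was higher by 0.99, from 5.89 to 6.88, and Cd4 by 0.86, from 5.03 to 5.89. Cd3e, Cd8a and Ly6g differed by 0.14, 0.17 and 0.09. The part of mature cells in the macrophage result was not tested.

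Promoters of Mrc1 and C1qc are printed because these genes had the steepest differences of the list. The Mrc1 window is chr2:14229164-14229413 on the plus strand and the C1qc window is chr4:136892915-136893164 on the minus strand. Capitals mark GGAAGT, which appears as its reverse complement in both, and TGTGGT in C1qc.
Mrc1: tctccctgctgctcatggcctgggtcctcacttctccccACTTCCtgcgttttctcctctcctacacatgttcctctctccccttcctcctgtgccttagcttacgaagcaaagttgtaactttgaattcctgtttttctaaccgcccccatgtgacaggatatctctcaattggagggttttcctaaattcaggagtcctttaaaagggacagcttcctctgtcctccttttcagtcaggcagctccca
C1qc: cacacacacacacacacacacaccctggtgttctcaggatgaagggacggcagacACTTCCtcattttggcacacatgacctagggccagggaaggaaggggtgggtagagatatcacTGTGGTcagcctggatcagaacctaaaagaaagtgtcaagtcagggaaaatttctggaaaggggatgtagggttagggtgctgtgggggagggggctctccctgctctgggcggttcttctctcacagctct
GGAAGT was found in 8 of the 16 windows of the macrophage list, 50.0%, and in 28.2% of the 174 windows of the genes at least 2-fold higher. Over all windows the share was 19.7%, and over the 32 windows of the genes at least 2-fold lower it was 12.5%.

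Genes of granulocyte-monocyte progenitors were higher in LSK/Flt3+ by smaller amounts. Of 26 measured members 24 were higher and 2 lower, and the median was 0.49. Past 1.5-fold were 10 upwards and 0 downwards, against 3.5% and 1.68% of all genes. Beyond Csf1r and Ly86, the members past 2-fold were Fcgr3, a low-affinity receptor for IgG, at 1.49, and Clec12a, an inhibitory lectin receptor, at 1.06. Cebpa, the transcription factor that granulocyte-monocyte commitment needs, read 6.92 and 7.74 on the wild-type arrays, a difference of 0.82, and 7.61 and 7.74 on the null arrays. Irf8, a factor of monocyte and dendritic fate, differed by 0.71, and Spi1, which encodes PU.1, by 0.53. The LSK/Flt3+ level of Cebpa thus lay at that of the null arrays.

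Enzymes of primary granules were higher on both null arrays than on either wild-type array. Mpo, the myeloperoxidase, read 11.35 on LSK/Flt3-, 11.47 on LSK/Flt3+, and 12.12 and 12.30 on the null arrays. Ctsg, cathepsin G, read 8.75 and 9.20 and, on the null arrays, 10.27 and 10.73. Prtn3, proteinase 3, read 6.55 and 6.97 and, on the null arrays, 7.86 and 8.63. Elane, the elastase, differed by 0.36. Prss57, another serine protease of these granules, differed by 0.79, from 5.23 to 6.02, and read 6.29 and 6.60 on the null arrays. Cebpe, the factor of late granulocyte maturation, differed by 0.04.

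S100a8 and S100a9, neighbouring genes whose products pair as calprotectin in neutrophils and monocytes, went the other way. S100a8 read 8.19 on LSK/Flt3-, 6.12 on LSK/Flt3+, and 6.59 and 7.07 on the null arrays, a difference of -2.07, the lowest of all genes. S100a9 read 8.48 and 7.12 and, on the null arrays, 7.51 and 7.35, a difference of -1.36. The LSK/Flt3- array was the highest of the 4 for both, and the other 3 lay within 1 log2 unit. Other members of the neutrophil and monocyte list were higher in LSK/Flt3+: Lyz2, the lysozyme of myeloid cells, by 1.40, Cd14, a receptor for lipopolysaccharide, by 1.25, and Il1b, the cytokine interleukin-1 beta, by 1.16. Lyz2 lies beside its near copy Lyz1, so these probes could be shared. Of the 18 measured members 12 were higher and 6 lower.

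Some granule genes of basophils and eosinophils were higher in LSK/Flt3+, but they also differed between the null replicates. Mcpt8, a basophil protease, read 7.01 on LSK/Flt3-, 9.04 on LSK/Flt3+, and 7.73 and 9.20 on the null arrays, so the difference of 2.03 compares with a replicate gap of 1.47. Prss34, another protease of basophils and mast cells, read 5.52 and 7.44 and, on the null arrays, 5.66 and 7.36, a difference of 1.92 against a gap of 1.69. Prg2, an eosinophil granule protein, differed by 1.03, against a replicate gap of 1.94. For Mcpt8 and Prss34 the LSK/Flt3+ reading was near that of null replicate 2, and the LSK/Flt3- reading was nearer to null replicate 1. The mast cell protease genes Cma1 and Mcpt4 differed by 0.12 and 0.02, and the median of the 15 measured members was 0.12. Of these members 9 were higher and 6 lower. The lower ones included Itga2 at -0.61, Cpa3 at -0.46, from 8.17 to 7.71, and Gata2 at -0.38.

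Transcription factors of stem cells were mostly lower in LSK/Flt3+, by modest amounts. Of 27 measured members 20 were lower, 6 were higher and Rora read 5.75 on both arrays. The median was -0.21, and 2 members passed 1.5-fold downwards and 1 upwards, against 1.68% and 3.5% of all genes. Mecom, which encodes the stem cell factor Evi1, read 8.06 on LSK/Flt3-, 7.28 on LSK/Flt3+, and 6.97 and 6.51 on the null arrays, a difference of -0.78. Its second probe set differed by -0.91. Zfp521, a zinc finger factor of early progenitors, read 6.50 and 5.76 and, on the null arrays, 5.90 and 5.51, a difference of -0.74. For both genes LSK/Flt3- was the highest of the 4 arrays.

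Gfi1b, a transcriptional repressor that acts in stem cells and in megakaryocyte and erythroid development, differed by -0.57, from 8.67 to 8.10. Meis1, a homeobox partner of Hox proteins, differed by -0.56, from 10.14 to 9.58, and read 10.36 and 9.89 on the null arrays. Prdm16 differed by -0.52 and Mycn by -0.49. Runx1, the core factor of blood formation, was higher by 0.41, from 8.49 to 8.90. Egr1, an immediate early factor that restrains stem cell cycling, was higher by 0.68, and it was the member past 1.5-fold upwards. Hlf, Erg, Tal1 and Hhex differed by less than 0.14 in size. The 28 measured Hox cluster genes had 0 members past 1.5-fold in either direction and a median of 0.07.

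Surface genes of stem cells did not move as a group: 15 of 30 measured members were higher and 15 lower, with a median of 0.01 as deposited and of -0.01 to -0.04 under the other scalings. Besides Tek and Slamf1, the members past 1.5-fold downwards were Itga2b, the platelet integrin CD41, at -0.79, and Thy1, a surface glycoprotein of stem and T cells, at -0.69. Those past 1.5-fold upwards were Cd48 and Emcn. Cd48, a SLAM family receptor of progenitors beyond the stem cell, read 9.53 on LSK/Flt3-, 10.15 on LSK/Flt3+, and 10.41 and 10.54 on the null arrays. Emcn, endomucin, read 6.44 and 7.09 on the wild-type arrays and 4.67 and 4.24 on the null arrays. Kit, which the gate selects, read 10.25 and 10.11, and Cd34 read 10.34 and 10.58. Procr and Fgd5, often used to enrich stem cells, differed by -0.17 and -0.36.

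Erythroid genes were lower in LSK/Flt3+ almost throughout. Of 22 measured members 20 were lower and 2 higher, 8 passed 1.5-fold downwards against 1.68% of all genes, and 0 passed 2-fold. The median was -0.56, against a median of -0.66 for null replicate 1 minus replicate 2. The null replicates thus differed in these genes by at least as much as the fractions did, and the gap between fractions was the larger for 8 of 22 members. The log2 sum of the list was 13.23 on LSK/Flt3-, 12.74 on LSK/Flt3+, and 11.96 and 12.92 on the null arrays. This sum follows its brightest members, among them Car1, which read 11.81, 11.37, 6.44 and 10.92 on these arrays.

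Icam4, an adhesion molecule of red cell precursors, read 7.23 on LSK/Flt3-, 6.37 on LSK/Flt3+, and 5.94 and 6.67 on the null arrays, a difference of -0.85. Rhag, a membrane channel of the Rh complex, read 7.61 and 6.82 and, on the null arrays, 4.80 and 6.07, a difference of -0.79. Cpox, an enzyme of haem synthesis, read 9.80 and 8.96 and, on the null arrays, 8.21 and 9.18, a difference of -0.84. LSK/Flt3- was the highest of the 4 arrays for each of these. Car1, a carbonic anhydrase of red cells, differed by -0.44 between the fractions, from 11.81 to 11.37, but by 4.49 between the null replicates. The lineage's transcription factors differed less, with Gata1 at -0.39 and Klf1 at -0.24.

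The promoters of Rhag and Icam4 are shown as examples of erythroid genes with large differences whose windows hold the GATA motif. The Rhag window is chr17:40810899-40811148 and the Icam4 window is chr9:21029182-21029431, both on the plus strand. Capitals mark GATAAG, as its reverse complement CTTATC, and in Rhag also ACCACA, the reverse complement of TGTGGT.
Rhag: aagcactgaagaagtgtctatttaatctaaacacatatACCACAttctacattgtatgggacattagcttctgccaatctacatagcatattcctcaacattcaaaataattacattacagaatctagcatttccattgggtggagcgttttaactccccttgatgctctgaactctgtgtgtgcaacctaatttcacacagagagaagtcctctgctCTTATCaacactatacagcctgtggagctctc
Icam4: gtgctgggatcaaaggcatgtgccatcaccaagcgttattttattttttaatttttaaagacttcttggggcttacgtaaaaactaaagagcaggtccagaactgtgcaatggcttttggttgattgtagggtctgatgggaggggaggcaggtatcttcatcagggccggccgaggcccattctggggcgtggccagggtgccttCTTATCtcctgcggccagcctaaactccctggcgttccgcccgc
GATAAG was found in 6 of the 18 windows of the erythroid list, 33.3%, against 6.55% of all windows. It was found in 0 of the 16 macrophage windows in 8.05% of the windows of genes at least 2-fold higher and in 0 of the 32 windows of genes at least 2-fold lower.

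Megakaryocyte and platelet genes were lower in LSK/Flt3+ for 17 of 23 measured members, with a median of -0.23. Past 1.5-fold, 5 were lower and 2 higher, against 1.68% and 3.5% of all genes. Cavin2, a caveola protein rich in platelets, read 6.57 on LSK/Flt3- and 5.53 on LSK/Flt3+, a difference of -1.04, but the null replicates were 1.34 apart. Mmrn1, a platelet granule protein, differed by -0.80 against a replicate gap of 0.01, reading 5.76 and 4.95. F2rl2, a thrombin receptor, differed by -0.78, and Trpc6, a calcium channel, by -0.72. The chemokines of platelet granules went the other way, with Pf4 higher by 0.48 and Ppbp by 0.69, and these differed by over 2 log2 units between the null replicates. Vwf, the clotting factor carried by platelet-biased stem cells, differed by -0.44.

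The other genes among the 15 largest differences downwards belong to no single list. Tjp1, a scaffold of tight junctions, read 7.78 on LSK/Flt3- and 6.62 on LSK/Flt3+, a difference of -1.16, and 8.29 and 8.74 on the null arrays. Cttn, the actin-binding protein cortactin, differed by -1.15, Ssx2ip, a protein of junctions and centrosomes, by -1.10, and Grb10, an imprinted adaptor that dampens growth factor signals, by -1.09. Dgka, a diacylglycerol kinase, differed by -1.12 and Ces2g, a carboxylesterase, by -1.16. Zfp626 and Gdap10 differed by -1.17 and -1.06. The null replicates were 1.98 apart for Ces2g, 1.75 for Gdap10 and 1.01 for Dgka.

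For 4 of these genes the probe sets did not give 1 answer. Slc19a1, the folate carrier, differed by -1.38 on its brighter probe set and by -0.54 on the other. On the brighter one the null replicates were 1.41 apart. Myo1d, an unconventional myosin, differed by -1.15 and -0.70, and Mtmr9, a phosphatase-like protein, by -1.07 and 0.20. Adgrl2, an adhesion receptor, differed by -1.19 on the brightest of its 8 probe sets, and the 8 ranged from -1.77 to 0.04. With the mean of all probe sets these 4 genes fell short of 2-fold, at -0.96, -0.93, -0.43 and -0.80.

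Of 28 measured cytokine and growth factor receptors 19 were higher in LSK/Flt3+ and 9 lower, beside 11290 of all 19938 genes higher, and the median was 0.11. Past 1.5-fold, 8 were higher and 2 lower, against 3.5% and 1.68% of all genes. The 8 include Flt3, on which the fractions were sorted. Csf1r, Il7r and Lifr passed 2-fold. Lifr, the receptor for leukaemia inhibitory factor, read 3.67 on LSK/Flt3-, 4.95 on LSK/Flt3+, and 3.76 and 3.89 on the null arrays. Il6st, the gp130 chain that receptors for interleukin-6 and LIF share, differed by 0.97, and Tnfrsf1a, a receptor for TNF, by 0.74. Besides Tek, Il12rb2 was lower past 1.5-fold, at -0.70. Epor, the erythropoietin receptor, differed by -0.57.

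Of 27 measured chemokine receptor and adhesion genes, 7 passed 1.5-fold upwards and 0 downwards, against 3.5% and 1.68% of all genes. Besides Vcam1 the member past 2-fold was Cd52, a short surface glycoprotein of leukocytes, which read 7.03 on LSK/Flt3- and 8.46 on LSK/Flt3+, and 6.90 and 7.91 on the null arrays. Cxcr4, the receptor that holds progenitors in marrow, read 9.78 and 10.60, a difference of 0.83, and 9.90 and 10.63 on the null arrays. Ccr2, a receptor of monocytes and their precursors, differed by 0.85, from 5.69 to 6.54, and read 8.28 and 9.10 on the null arrays. The LSK/Flt3+ readings of Cxcr4 and Ccr2 were not the highest of the 4 arrays. Of 27 genes of the Notch, Wnt and TGF-beta pathways 2 passed 1.5-fold, Notch1 and Id2, an inhibitor of E proteins, which differed by 1.31, from 5.12 to 6.43.

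Immediate early genes were higher in LSK/Flt3+. Of 24 measured members 20 were higher and 4 lower, and the median was 0.43. Past 1.5-fold were 9 upwards and 0 downwards, against 3.5% and 1.68% of all genes. Atf3, a stress-induced factor, read 6.29 on LSK/Flt3-, 7.90 on LSK/Flt3+, and 5.52 and 5.25 on the null arrays, a difference of 1.61. Egr2 differed by 1.19, from 5.72 to 6.91, and Dusp1, a phosphatase of MAP kinases, by 1.01, or 0.96 after median centring, which is short of 2-fold. Nfkbia and Tnfaip3, feedback inhibitors of NF-kappaB, differed by 0.87 and 0.80. Each of these 5 genes was highest on the LSK/Flt3+ array, and the part of cell handling in this was not tested. Of 11 heat shock genes, Hspa1a alone passed 1.5-fold, at 1.25, from 8.05 to 9.30, and 7 were lower.

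The cell cycle genes lay close together in the fractions. Of all genes, 3.5% passed 1.5-fold upwards and 1.68% downwards. Of 48 measured DNA replication genes 32 were lower and 16 higher in LSK/Flt3+, with a median of -0.13, and 1 passed 1.5-fold. That gene was Lig1, the replicative ligase, at -0.62, from 9.49 to 8.87. Orc6, a subunit of the origin recognition complex, differed by -0.55, Mcm5, of the replicative helicase, by -0.45, and Mcm2 by -0.43. Genes as bright as these also lay slightly below 0, with a median of -0.06 over the 1557 genes of mean level 8 to 9. Of 31 mitosis genes 21 were higher, beside 11290 of all 19938 genes, with a median of 0.09, and Cdc20, the activator of the anaphase-promoting complex, was the member past 1.5-fold, at 0.74, against a replicate gap of 0.92. Ccne1, the G1 cyclin E1, read 7.62 on LSK/Flt3- and 6.94 on LSK/Flt3+, a difference of -0.68, and was the sole member past 1.5-fold of 22 G1 regulators.

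The lists of mature lymphocytes, of vessels and stroma and of interferon response had medians between 0.11 and 0.22. Beside the counts below, 3.5% of all genes passed 1.5-fold upwards and 1.68% downwards. At 2-fold these shares were 0.923% and 0.176%, so 1 or 2 members of a small list say little. Of 15 B-lineage genes 2 passed 1.5-fold upwards, Rag1 and Pax5, the B cell commitment factor, which read 4.79 and 5.57. Of 20 T and NK genes 2 passed upwards, Cd4 and Cd2, and Thy1 passed downwards. Of 18 endothelial and stromal genes 3 passed upwards, and Dcn and Sparc, matrix proteins of stroma, were past 2-fold at 1.29 and 1.04, from 4.55 and 4.95 on LSK/Flt3-. Sparc fell just short of 2-fold under all 3 other scalings, at 0.98 to 0.99, and the null replicates were 1.28 apart. Of 23 interferon response genes 1 passed 1.5-fold each way, Ifit3 at 0.70 and Oasl2 at -0.63. Of 8 Gimap genes, GTPases of lymphocytes, Gimap5 was lower by -1.03, from 5.59 to 4.57, and the median was -0.17. Of 24 glycolysis and hypoxia genes 0 passed 1.5-fold, and of 17 imprinted genes Dcn passed upwards and Grb10 downwards.

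**Figure D4:**
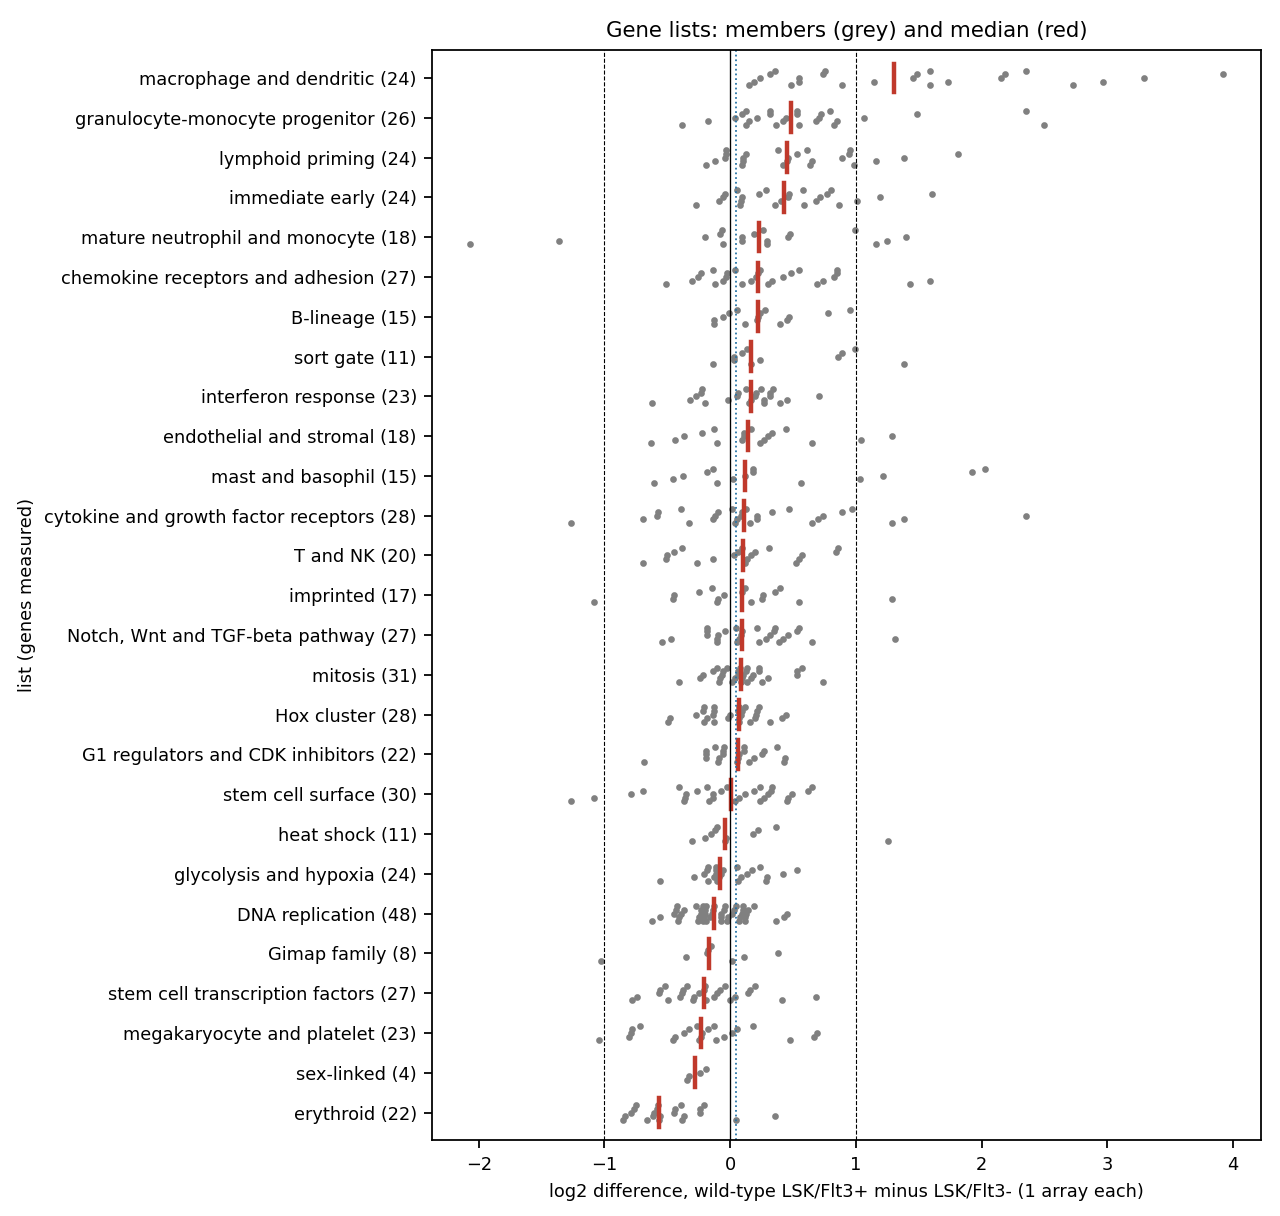
Log2 difference, LSK/Flt3+ minus LSK/Flt3- (1 array each), of the measured members of 27 gene lists (grey points) with each list's median (red bar), the median of all genes at 0.04 (dotted line) and 2-fold either way (dashed lines). Medians run from 1.30 for the macrophage and dendritic list to -0.56 for the erythroid list.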

How the data were processed

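RNA of sorted cells was measured on 4 arrays, and the 2 wild-type ones were compared. The deposited values are log2 levels per probe set; the submitters' processing notes name RMA and affy 1.23 for them. RMA usually equalises the arrays, but the deposited medians over all probe sets (5.32, 5.36, 5.60 and 5.30) differ, so the scaling they carry is not settled. No genome build for the arrays is stated in the sources used here.

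Of 35556 probe sets, 21789 had a single gene symbol, 1621 several and 12146 none, and the last 2 kinds were left out. They name 19938 genes. Where a gene had several probe sets (999 genes), the brightest by its mean across all 4 arrays stood for it. Differences were LSK/Flt3+ minus LSK/Flt3-, with no test, since each fraction has 1 array. RMA compresses low levels, so ratios of dim genes are likely too small, and the arrays carry no counts or detection calls.

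The comparison, its markers and the 27 gene lists were chosen with earlier results of these data known. The lists hold 584 genes, of which 543 were measured, 13 had only a shared probe set and 28 had no probe set that the annotation names. Genes were named by rule: the 4 markers, the 15 largest differences each way with a mean level of at least 6 over the wild-type arrays, passing over predicted genes and small RNAs, and up to 6 members of each list with the largest differences. Other list members are named to complete a family or to show members that lay close. Promoters are RefSeq windows (GRCm38.p6), matched by symbol for 141 of the 184 genes at least 2-fold higher and 25 of the 35 lower.

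Alternatives were quantile normalization and cyclic loess of the 4 arrays (limma 3.58.1 in R 4.3.3), median centring, other rules for genes with several probe sets, and filters at mean levels of 6 and 7. The scripts were checked on simulated data.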

Additional observations from a re-analysis of the deposited data

How the results depend on the processing

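Under the 3 other scalings and the 2 other rules for probe sets, genes at least 2-fold higher in LSK/Flt3+ numbered 162 to 190 and lower ones 31 to 49, and the SD between the wild-type arrays lay between 0.31 and 0.34 under these and under the filters. Filters on low levels remove genes by construction: with a mean of at least 6, 89 genes were 2-fold higher, and 312 higher and 222 lower at 1.5-fold. With a mean of at least 7, these counts were 44, 165 and 132, and 14 genes were 2-fold lower. Between the null replicates, median centring gave 923 genes at least 2-fold apart and the mean of at least 7 gave 295. The cause of the rise under centring was not tested. 2 alternatives were added after seeing the data: with only genes whose gap exceeds that between the null replicates, 178 were 2-fold higher and 28 lower, and without 82 genes of 4 myeloid lists, 161 and 33. Of 57 named genes past 2-fold, 50 stayed past it under all scalings and the mean of all probe sets, and the exceptions were Adgrl2, Dusp1, Mtmr9, Myo1d, Prg2, Slc19a1 and Sparc. The direction of list medians held under the 3 other scalings, except for the stem cell surface list, whose median lay between 0.01 and -0.04. Filters on level, which leave fewer genes, turned the medians of the neutrophil and monocyte list (0.23, against 1.08 at 6 and -0.10 at 7), the mast and basophil list (0.12 to -0.38 at 7), the endothelial and stromal list (0.14 to -0.37 at 6), the imprinted list (0.10 to -0.45 at 6), the B-lineage list (0.22 to -0.01) and the Gimap family (-0.17 to 0.01). With the mean of all probe sets, Ldhb and Bnip3, both under 1.5-fold, turned sign, from -0.29 to 0.28 and from 0.28 to -0.03. No paired analysis was possible because each wild-type fraction has 1 array, so the groups share fewer than 2 replicate numbers. No array could be left out without ending the comparison.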

Other observations

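Several gene families, some of whose members are also in the lists, were mostly higher in LSK/Flt3+. They were chosen after their values were seen, so the counts are descriptions. Of all 19938 genes, 11290 were higher and 0.923% passed 2-fold upwards. Of 10 measured Toll-like receptors, sensors of microbial products, 10 were higher and 3 passed 2-fold, with a median of 0.77. On LSK/Flt3-, Tlr3, Tlr7, Tlr8 and Tlr13 read 3.67, 4.34, 3.28 and 3.66, below that array's lower quartile of 4.38. Tlr4, which senses lipopolysaccharide, read 5.00 on LSK/Flt3- and 6.22 on LSK/Flt3+, against 5.56 and 5.42 on the null arrays. Of 6 Fc receptor genes 4 passed 2-fold, among them Fcer1g, the shared signalling chain, which read 6.76 and 7.81. Of 12 Clec4 and Clec7 lectin receptors 11 were higher and 4 passed 2-fold, led by Clec4a3 at 2.51, whose near copies could share its probes. Of 22 cathepsins and legumain, proteases of lysosomes, 4 passed 2-fold, with Lgmn at 1.99 and Ctss at 1.40, whereas Ctse, listed here with the erythroid genes, differed by -0.60.

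Secreted signals showed the same direction. Of 19 CC chemokines 18 were higher and 4 passed 2-fold, against 0.923% of all genes, with Ccl2 at 2.09. Ccl3 was bright in both fractions at 7.96 and 9.42 and read 4.91 and 6.00 on the null arrays. Il1a, the cytokine interleukin-1 alpha, read 4.57 on LSK/Flt3-, 7.35 on LSK/Flt3+, and 4.41 and 3.46 on the null arrays. Tnf differed by 1.31. Ms4a7, a membrane protein gene of macrophages, read 4.28 and 7.68 and, on the null arrays, 3.58 and 3.56. In the S100a family, S100a6 and S100a4 were higher by 0.97 and 0.88 where S100a8 and S100a9 were lower. Of 20 class I MHC genes 1 passed 2-fold, H2-M2, against 4 of 9 class II genes.

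Of the 184 genes at least 2-fold higher, 21 lay in 10 runs of adjacent genes in the RefSeq order. Among them were Il1a with Il1b, C1qb with C1qc, Ccl6 with Ccl3, and F13a1 with Ly86. Other runs join near copies or genes similar in sequence: Lilr4b with Lilrb4a, Lyz2 with Lyz1, Clec4a1 with Clec4a3, and H2-Ab1 with H2-Aa and H2-Eb1. Among the 35 lower genes 1 run of adjacent genes was found, S100a8 with S100a9. These counts have no share over the 19916 matched genes beside them, so clustering was not tested.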
